A study of Mus musculus with 6 samples.

Results

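Grb7 and the 9 genes that surround it around Ikzf3 on mouse chromosome 11 (Stard3, Tcap, Pnmt, Pgap3, Erbb2, Mien1, Zpbp2, Ormdl3 and Gsdma) were examined in splenic naive CD4 T cells. They were taken by symbol, and are 10 of the 25239 genes counted. The block was chosen after Grb7 had been seen to differ between the genotypes, so the values of its genes in the genotype comparisons are given as a description, without p-values.

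Ikzf3 encodes Aiolos, a zinc finger transcription factor of the Ikaros family that lymphocytes use to control gene expression during their development. The genes next to it form a block that is kept together in mammals: the human counterpart is the segment amplified together with ERBB2 in breast cancer, and its ORMDL3 end is known from studies of asthma susceptibility. The block mixes genes of unrelated function. Grb7 is an SH2 domain adaptor that binds activated receptor tyrosine kinases, Erbb2 is such a receptor, and Mien1 encodes a small redox-like protein linked to cell migration. Stard3 moves sterol at endosomes, Pgap3 remodels GPI anchors and Ormdl3 restrains the first step of sphingolipid synthesis. Tcap (titin cap), Pnmt (adrenaline synthesis), Zpbp2 (sperm zona pellucida binding) and Gsdma (a pore-forming gasdermin of skin and gut) are best known from tissues other than lymphocytes.

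The cells were TCRb+CD4+CD44-CD127+ T cells, purified by FACS from the spleens of C57BL/6 mice, and poly(A) RNA was sequenced. The 3 groups were Ikzf3 +/+ mice (wild type), Ikzf3 +/N159S mice (heterozygotes) and Ikzf3 N159S/N159S mice (homozygotes). N159S is a missense change of Aiolos that was introduced into the endogenous gene by CRISPR-Cas9 editing, so every cell of the mouse carries it. Each group had 2 libraries. The study's methods give 2 mice for each mutant genotype and do not say for Ikzf3 +/+ which of its mice gave the T cell libraries. No age was given for these mice, and no treatment of the mice is named.

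Libraries held 11696461 to 17317260 reads counted on genes, 50.7 to 57.7% of their entries, and their TMM scaling factors lay between 0.979 and 1.03. Of 10 markers of naive CD4 T cells, 9 were listed and none was at 0 in any library, with a summed level of 5610 to 6950 CPM (counts per 1e+06 counted reads). Markers of B cells (12 of 12 listed, none at 0) summed to 213 and 331 CPM in wild type, 151 and 225 CPM in homozygotes, and 587 and 963 CPM in heterozygotes. Xist, the transcript that silences an X chromosome, stood at 730 and 824 CPM in the heterozygous libraries and at 0.772 to 1.98 CPM in the other 4. The Y-linked Ddx3y was at 1.06 and 1.09 CPM in the heterozygous libraries and at 263 to 313 CPM in the other 4. Eif2s3y, Kdm5d and Uty, also Y-linked, were at 0.059 to 0.515 CPM and 33.3 to 134 CPM. By these transcripts the heterozygous libraries came from female mice and the other 4 from male mice. Of the 12 B cell markers, 7 were past the threshold (an FDR of 0.05 over all tested genes) as higher in heterozygotes. In homozygotes, 3 were past it as lower by the Benjamini-Hochberg adjusted quasi-likelihood test of edgeR. By that edgeR test these were Ms4a1 (log2 difference -1.56, FDR = 0.00713), Cr2 (-1.16, FDR = 0.0257) and Cd79a (-1.07, FDR = 0.0271). Cd79b (0.12, standard error 0.27) and Bank1 (0.06, standard error 0.26) were not lower, and the rest were lower without passing the threshold. The summed myeloid markers (9 of 9 listed, none at 0) were between 31.1 and 55.2 CPM in the 6 libraries, and the cytotoxic markers (8 of 8 listed, with Ncr1 at 0 in 3 libraries) 40.3 to 56.9 CPM in wild type and heterozygotes and 31.5 and 35.2 CPM in homozygotes. Cd8b1, a chain of the CD8 co-receptor, was lower in homozygotes by the same edgeR test (log2 difference -2.65, standard error 0.29, FDR = 0.00038). Gzma went the other way (2.66, standard error 0.72, FDR = 0.0555 by that edgeR test), and DESeq2 called both. The other tested cytotoxic markers, Cd8a (-1.53), Nkg7 (-1.33) and Prf1 (-0.17), were not past the threshold with either test. The heterozygous group therefore differed from wild type in B cell transcripts and in sex, read from these transcripts, as well as in genotype. The homozygous group differed from wild type in some B cell and cytotoxic markers. In each comparison these cannot be told apart from genotype. The erythroid and platelet markers summed to 0.686 to 6.6 CPM and the stromal and epithelial markers to 182 to 238 CPM. Nearly all of the latter sum was Pecam1, at 177 to 234 CPM. The next highest of these markers, Epcam, was at 1.81 to 4.77 CPM.

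In RefSeq's GRCm38.p6 annotation (mm10) the block spans 319 kb of chromosome 11, from position 98358367 to 98677708. On chromosome 11, 7 genes lie on the Grb7 side of Ikzf3 in the order Stard3, Tcap, Pnmt, Pgap3, Erbb2, Mien1 and Grb7, and Zpbp2, Ormdl3 and Gsdma lie on the other side. Ikzf3 itself occupies 98464610 to 98546031 on the minus strand. Grb7 occupies 98446834 to 98455373 on the plus strand, so the ends of Grb7 and Ikzf3 face each other across 9236 bases. Zpbp2 (98551097 to 98558665, plus strand) starts 5.07 kb beyond the start of Ikzf3. RefSeq's extent of Mien1, from 98437708 to 98458230 on the minus strand, runs across all 8540 bases of Grb7. In GENCODE M21 the exons of Grb7 share 0 bases with those of any other gene. Those of Mien1 share 9 bases with Erbb2 and 281 bases with the antisense gene Gm12352, which is not among the genes counted. The reads were counted on refGene genes, whose exons were not checked for such overlaps. The library kit does not mark strand, so within these 281 bases reads of Mien1 and of Gm12352 cannot be told apart.

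In wild-type T cells the block held 3 well expressed genes, 4 weakly expressed ones and 3 at the limit of detection. Levels between genes are given as RPKM (CPM per kilobase of exon), with exon lengths from GENCODE M21. In wild-type T cells Mien1 was the highest at 47.3 ± 5.49 RPKM (SD, n = 2), above the level of 92.2% of the 11883 tested genes that have a length. Ormdl3 followed at 22.7 ± 1.76 RPKM and Stard3 at 17.9 ± 1.49 RPKM (SD, n = 2 each), and the libraries of these 3 genes did not overlap. Ikzf3 stood at a like level, 17.8 ± 0.211 RPKM (SD, n = 2). Pgap3 was at 2.59 ± 0.183 RPKM, Zpbp2 at 1.17 ± 0.0102 RPKM and Tcap at 1.17 ± 0.144 RPKM (SD, n = 2 each), the last pair being the only tested neighbours in the order that overlapped. Grb7 was the lowest of the 7 genes that passed the filter on low counts, at 0.78 ± 0.0865 RPKM (SD, n = 2), above only 16.4% of the tested genes.

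**Figure D1:**
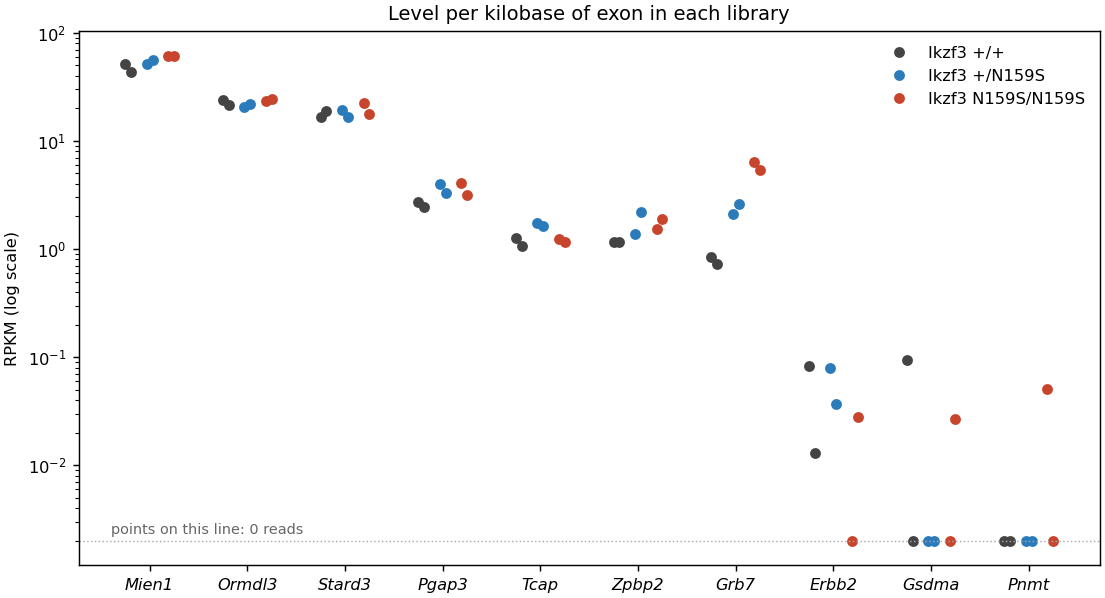
Level of the 10 genes in each of the 6 libraries in RPKM on a log scale, coloured by Ikzf3 genotype, with libraries of 0 reads drawn on the dotted line. Grb7 moves from below Tcap and Zpbp2 in Ikzf3 +/+ to above Pgap3 in Ikzf3 N159S/N159S, and Erbb2, Gsdma and Pnmt stay under 0.1 RPKM.

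Among the tested genes, Grb7 moved up in this order in the mutant genotypes. In heterozygous T cells it was the fifth, at 2.37 ± 0.353 RPKM (SD, n = 2), where its libraries overlapped those of Zpbp2 (1.79 ± 0.602 RPKM, SD, n = 2). In homozygous T cells it was the fourth, at 5.87 ± 0.641 RPKM, without overlap with Pgap3 at 3.64 ± 0.652 RPKM (SD, n = 2 each). It was then above 46.4% of the tested genes, against 28.2% in heterozygotes. Mien1, Ormdl3 and Stard3 kept the first 3 places in every genotype.

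Erbb2, Gsdma and Pnmt were hardly read in these cells, and none of the 3 passed the filter. Erbb2, the receptor with which Grb7 is amplified in tumours, had 5 and 1 reads in wild type, 7 and 3 reads in heterozygotes, and 0 and 2 reads in homozygotes. Gsdma had 3 and 0 reads in wild type, 0 reads in both heterozygous libraries, and 0 and 1 reads in homozygotes, and is uncertain because its close relatives Gsdma2 and Gsdma3 could take reads from it. Pnmt had 1 read in all, in a library of homozygotes. A count of 0 over the wild-type group allows a level of up to 0.113 CPM (3 reads, counting error only), over heterozygotes up to 0.0923 CPM and over homozygotes up to 0.0972 CPM. No fold change is given for these 3 genes, whose differences were not detectable at this depth.

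Grb7 was several times higher in the T cells with N159S, and higher with both alleles changed than with 1. The raw reads of Grb7 were 33 and 36 in wild type, 121 and 137 in heterozygotes, and 366 and 249 in homozygotes. Scaled by the TMM library sizes, its normalized counts were 42.4 and 36.3 in wild type, 107 and 132 in heterozygotes, and 319 and 273 in homozygotes. No library of a genotype overlapped with one of another. The group means were 39.3 ± 4.36, 119 ± 17.8 and 296 ± 32.3 (SD, n = 2 each), so the mean was 3.04 times that of wild type in heterozygotes and 7.52 times in homozygotes.

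On the log2 scale of the edgeR fit the difference of Grb7 from wild type was 2.92 (standard error 0.21, 95% interval 2.46 to 3.38) in homozygotes. It was 1.61 (standard error 0.22, 95% interval 1.12 to 2.09) in heterozygotes. Both comparisons use the same wild-type libraries. By size, Grb7 was the 30th highest of 12117 tested genes in the first and the 172nd in the second. Differences of 4-fold or more towards the mutant were found for 0.726% of tested genes in homozygotes and for 0.602% in heterozygotes, and Grb7 was past that size only in the first. The level in homozygotes exceeded that in heterozygotes by 1.31 on the log2 scale, a ratio of 2.48. The heterozygous cells thus showed a share of 0.55 of the log2 difference between wild type and homozygotes and of 0.312 of the linear difference, 0.15 above the midpoint on the log2 scale. In bulk libraries a larger share of cells with Grb7 and more Grb7 RNA per cell cannot be told apart.

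Leaving out any library moved the log2 difference of Grb7 between 2.8 and 3.03 in homozygotes and between 1.45 and 1.75 in heterozygotes. The part of the B cell and cytotoxic transcripts, and of the sex of the mice, in these values was not tested.

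**Figure D2:**
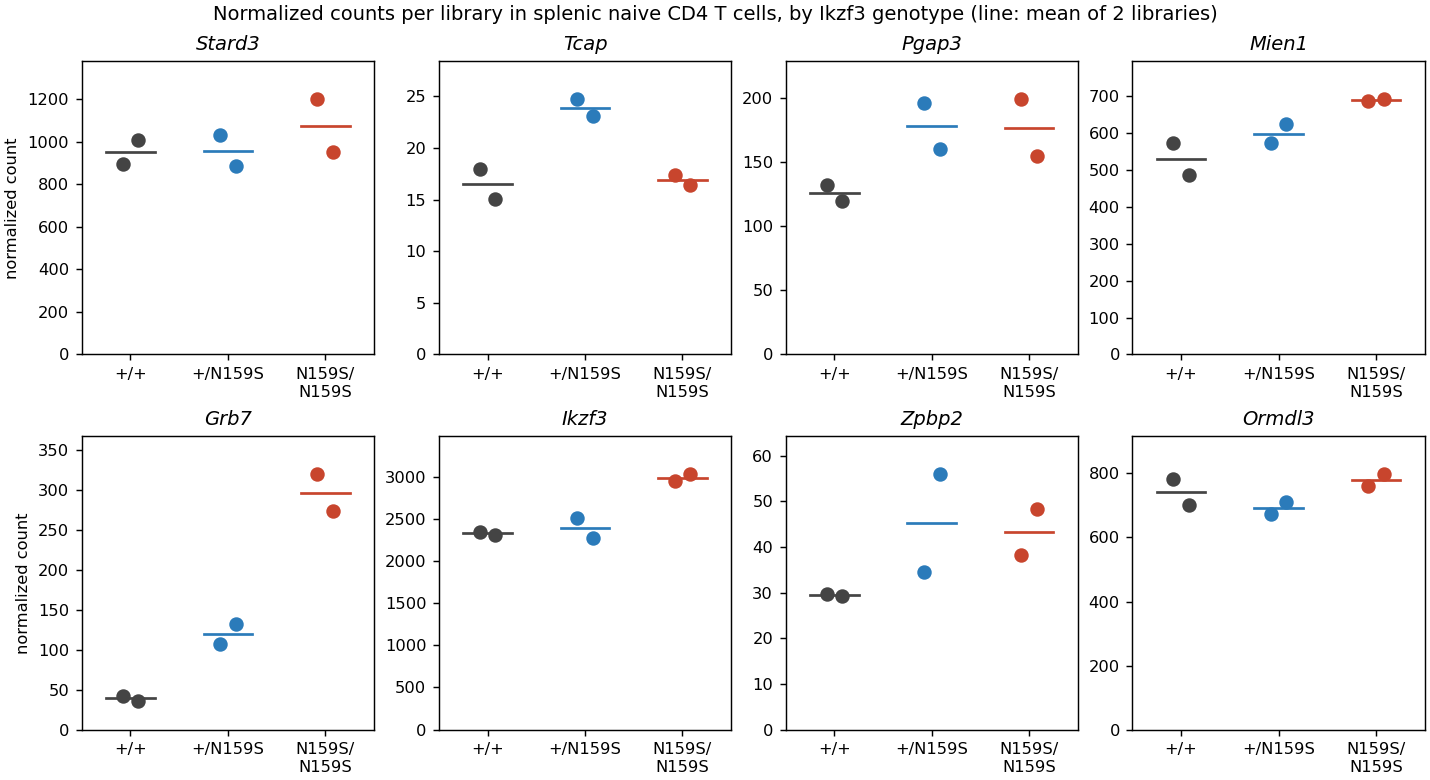
Normalized counts of the 7 tested genes of the block and of Ikzf3 in each library, by Ikzf3 genotype, with a line at the mean of 2 libraries and each vertical axis starting at 0. Grb7 goes from 36.3 and 42.4 to 273 and 319 without overlap between genotypes, while Stard3 and Ormdl3 overlap between Ikzf3 +/+ and each mutant genotype.

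No neighbour of Grb7 came near this size. Of the 7 tested genes only Grb7 was past an FDR of 0.05 in the fit over all genes, in homozygotes, where 5.21% of all tested genes were (3.1% higher), and in heterozygotes, where 1.75% were (1.16% higher). Since Grb7 was chosen on this contrast, nothing is read from that count. All 7 had a positive log2 difference in homozygotes, as 50% of tested genes did, with a median of 0.38 against 0 over all tested genes. In heterozygotes, 6 of 7 were positive, as 51.8% of tested genes were, with a median of 0.5 against 0.011. In 4 of the 7 (Pgap3, Mien1, Grb7 and Zpbp2) both homozygous libraries lay above both wild-type libraries, a pattern of 24.3% of tested genes. In heterozygotes this held for 5 of the 7, those 4 and Tcap, beside 25% of tested genes.

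Mien1, which shares its extent with Grb7, was the other gene that stood stepwise higher with each N159S allele. Its normalized counts were 573 and 486 in wild type, 574 and 623 in heterozygotes, and 686 and 691 in homozygotes. The groups did not overlap, but the highest wild type and the lowest heterozygous library were almost level. The group means were 530 ± 61.5, 598 ± 34.3 and 688 ± 3.8 (SD, n = 2 each). Its log2 difference was 0.38 (standard error 0.12, 95% interval 0.12 to 0.64) in homozygotes and 0.18 (standard error 0.12, 95% interval -0.08 to 0.44) in heterozygotes. Without wild-type replicate 1 these values were 0.5 and 0.3, and without wild-type replicate 2 they were 0.27 and 0.06. A stepwise order of all 6 libraries without overlap, as Grb7 and Mien1 had, was found in 4.08% of tested genes.

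Pgap3, which trims fatty acids on GPI-anchored proteins, was higher to the same extent in both mutant genotypes. Its normalized counts were 132 and 120 in wild type, 196 and 160 in heterozygotes, and 199 and 155 in homozygotes. Both mutant groups lay above wild type and overlapped each other. The log2 difference was 0.5 (standard error 0.19) in each, with 95% intervals of 0.07 to 0.92 and 0.08 to 0.92 for homozygotes and heterozygotes. Without homozygous replicate 1 the value in that genotype was 0.3, so this library carried much of it.

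Zpbp2, the nearest gene on the far side of Ikzf3, was read only 23 to 58 times in a library. Its normalized counts were 29.6 and 29.2 in wild type, 34.5 and 55.9 in heterozygotes, and 38.3 and 48.3 in homozygotes. The heterozygous libraries lay far apart and enclosed those of homozygotes. The log2 difference was 0.55 (standard error 0.38, 95% interval -0.28 to 1.38) in homozygotes and 0.61 (standard error 0.37, 95% interval -0.21 to 1.44) in heterozygotes. The latter ranged from 0.23 without heterozygous replicate 2 to 0.92 without replicate 1.

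Stard3 and Ormdl3, the well expressed genes at either end of the tested block, overlapped between wild type and each mutant genotype. The normalized counts of Stard3 were 896 and 1010 in wild type, 1030 and 885 in heterozygotes, and 1200 and 951 in homozygotes. Its log2 difference was 0.18 (standard error 0.13, 95% interval -0.12 to 0.47) in homozygotes and 0.01 (standard error 0.13, 95% interval -0.28 to 0.3) in heterozygotes. The former was 0 without homozygous replicate 1. Ormdl3, the sphingolipid regulator, had normalized counts of 784 and 703 in wild type, 673 and 712 in heterozygotes, and 762 and 797 in homozygotes. The 2 mutant genotypes of Ormdl3 did not overlap each other. Its log2 difference was 0.07 (standard error 0.11, 95% interval -0.17 to 0.31) in homozygotes and -0.1 (standard error 0.11, 95% interval -0.34 to 0.14) in heterozygotes. For both genes these intervals lie below the difference seen for Grb7.

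Tcap, a sarcomere protein of muscle, was read 14 to 28 times in a library. Its normalized counts were 18 and 15.1 in wild type, 24.7 and 23.1 in heterozygotes, and 17.4 and 16.4 in homozygotes. The heterozygous pair lay above the other 4 libraries, and wild type and homozygotes overlapped. The log2 difference was 0.04 (standard error 0.47, 95% interval -0.99 to 1.08) in homozygotes and 0.54 (standard error 0.45, 95% interval -0.46 to 1.53) in heterozygotes.

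The first 250 bases upstream of a start listed in RefSeq are shown for Mien1 and Ormdl3, the most highly expressed genes on the Grb7 side and on the far side of Ikzf3. Both are given 5′ to 3′ on the minus strand of GRCm38.p6, Mien1 from chr11:98438989-98439238 and Ormdl3 from chr11:98587246-98587495. Capitals mark GGGAA, the core letters that zinc fingers of the Ikaros family bind, or its reverse complement TTCCC.
Mien1: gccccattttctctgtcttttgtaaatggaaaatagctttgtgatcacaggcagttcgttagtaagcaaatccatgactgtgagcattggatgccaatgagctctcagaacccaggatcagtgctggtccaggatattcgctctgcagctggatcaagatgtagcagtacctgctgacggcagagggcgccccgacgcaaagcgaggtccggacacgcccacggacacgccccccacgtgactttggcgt
Ormdl3: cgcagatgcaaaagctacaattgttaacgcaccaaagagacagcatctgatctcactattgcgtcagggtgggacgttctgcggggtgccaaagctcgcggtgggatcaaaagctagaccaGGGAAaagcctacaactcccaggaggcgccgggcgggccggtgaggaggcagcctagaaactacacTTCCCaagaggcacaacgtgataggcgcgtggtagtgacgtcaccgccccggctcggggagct
The Mien1 window held 0 matches and the Ormdl3 window 2. Of the 6 genes of the block with a window, 4 had at least 1 match on either strand: Stard3, Pgap3, Zpbp2 and Ormdl3. Erbb2 had 0. For comparison, 56.2% of all 32851 windows of the same length held a match. Grb7 itself, Tcap, Pnmt and Gsdma had no window and were not searched. The letters alone do not show that a protein binds there.

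Ikzf3, the edited gene, was itself read 1829 to 3387 times in a library. Its normalized counts were 2350 and 2310 in wild type, 2510 and 2280 in heterozygotes, and 2950 and 3030 in homozygotes. The log2 difference was 0.36 (standard error 0.09, FDR = 0.0523, quasi-likelihood test of edgeR, Benjamini-Hochberg adjusted) in homozygotes, and 6 of 13 alternative settings put it under 0.05. It was 0.04 (standard error 0.09, FDR = 0.882, the same edgeR test) in heterozygotes. Counts per gene do not tell the alleles apart.

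Beyond the block, few genes of the chromosome around it passed the test. Of 65 other genes with any part within 1 Mb of Ikzf3, 37 were tested, and their median log2 difference was 0.01 in both comparisons. One was past the threshold in homozygotes (2.7% of those tested, beside 5.21% of all genes) and 0 in heterozygotes. With edgeR, 7 had an unadjusted p under 0.05 in homozygotes and 3 in heterozygotes, beside 18.4% and 16.3% of all tested genes. DESeq2 called 2 (Arl5c and Pcgf2) and 0. The 1 gene past the threshold with edgeR was Pcgf2, a Polycomb ring finger gene. Its raw reads were 18 and 26 in wild type, 57 and 53 in heterozygotes, and 106 and 65 in homozygotes. It rose by 1.72 on the log2 scale (standard error 0.31, FDR = 0.00803, quasi-likelihood test of edgeR, Benjamini-Hochberg adjusted), and was past the threshold under 10 of 13 alternatives. Its FDR by the edgeR test was 0.0529 without wild-type replicate 1, 0.0511 without wild-type replicate 2 and 0.0736 without homozygous replicate 1. The nearest tested genes on each side of the block were Cdk12, with a log2 difference of -0.11 (standard error 0.1, FDR = 0.659 by the same edgeR test), and Psmd3, with 0.09 (standard error 0.09, FDR = 0.654 by the same edgeR test), in homozygotes.

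**Figure D3:**
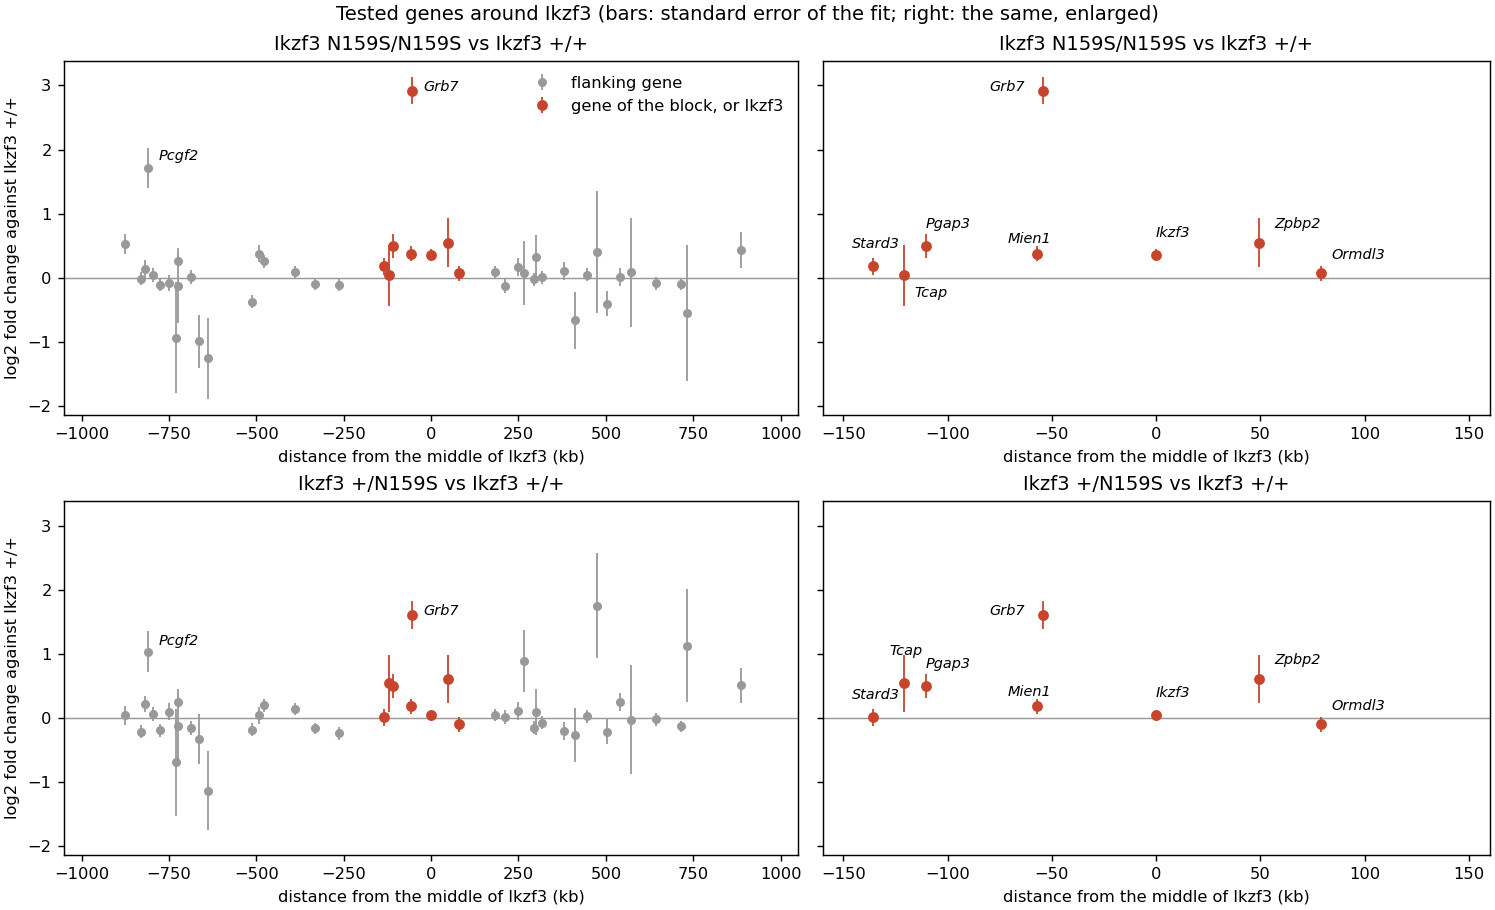
Log2 difference from Ikzf3 +/+ of every tested gene within 1 Mb of Ikzf3 against the distance of the gene's middle from that of Ikzf3 in kb, with standard errors of the fit, for Ikzf3 N159S/N159S (top) and Ikzf3 +/N159S (bottom), the right panels enlarging the block. Among the tested genes of the block Grb7 stands at 2.92 and 1.61 and the others at 0.55 or less and 0.61 or less, and Pcgf2 lies at the far left of the window.

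The genes whose course over the libraries was most like that of Grb7 lay outside the block. Over the 6 libraries, the log2 CPM of Mien1 had a Pearson correlation of 0.92 with that of Grb7, Pgap3 0.75, Zpbp2 0.69, Stard3 0.43, Ormdl3 0.32 and Tcap 0.12, and Ikzf3 0.83. Among 2405 tested genes whose log2 CPM spanned at least 1, the highest were Kcnk6 (0.9983), Emilin1 (0.9930), Synpo (0.9903), Fut10 (0.9901) and Cep290 (0.9899). The other tested genes of the block spanned 0.24 (Ormdl3) to 0.89 (Zpbp2), so they could not enter this ranking. Their correlations given above were all lower than these. These points are 6 libraries in 3 genotypes, so any gene that steps up with the N159S alleles scores high, and the values are a description. Kcnk6, a potassium channel gene, had 20 and 22 raw reads in wild type, 84 and 97 in heterozygotes, and 255 and 204 in homozygotes. Its log2 differences of 3.22 and 1.81 in homozygotes and heterozygotes stood beside 2.92 and 1.61 for Grb7. Synpo, an actin-binding protein gene, had 3.24 and 1.96, Cep290, a cilium gene, 2.47 and 1.46, Emilin1, an extracellular matrix gene, 1.31 and 0.59, and Fut10, a fucosyltransferase gene, 4.4 and 2.99 from only 2 raw reads in each wild-type library.

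**Figure D4:**
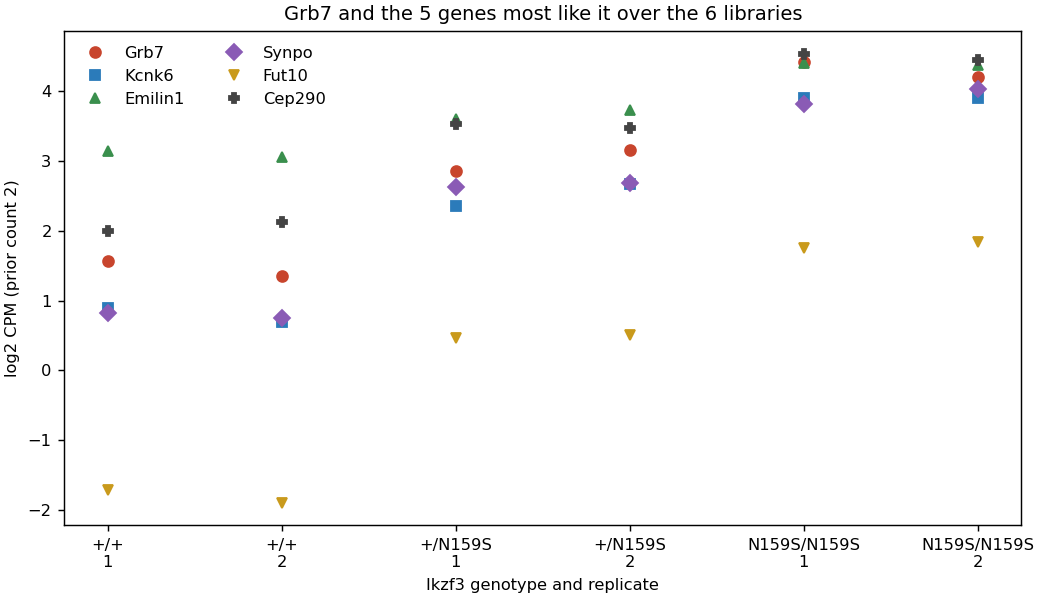
Log2 CPM (prior count 2) of Grb7 and of the 5 genes with the highest correlation with it in each of the 6 libraries. All 6 genes step up from Ikzf3 +/+ to Ikzf3 +/N159S to Ikzf3 N159S/N159S, Grb7 from 1.35 and 1.57 to 4.2 and 4.42.

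Genes that share a pathway with the block were then counted, from lists chosen for the roles of its members. The lists were drawn up with earlier results of these data known, so their counts are a description. Of all tested genes, 5.21% were past the threshold in homozygotes and 1.75% in heterozygotes. Of the Grb7 relatives and other adaptors of tyrosine kinases, 17 were tested and 0 were past the threshold in either comparison with edgeR, with 4 at an unadjusted p under 0.05 in homozygotes and 5 in heterozygotes. Over all tested genes 18.4% and 16.3% had such a p. DESeq2 called 1 (Lcp2) and 0. The smallest p in homozygotes was that of Lcp2, the SLP-76 adaptor of the T cell receptor, with a log2 difference of -0.35 (standard error 0.1, FDR = 0.0872, quasi-likelihood test of edgeR, Benjamini-Hochberg adjusted) in homozygotes.

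For Erbb2, 9 ErbB receptors, ligands and regulators were tested, and with edgeR 1 was past the threshold in homozygotes and 0 in heterozygotes, where 3 had an unadjusted p under 0.05. This was Lrig1, a negative regulator of ErbB receptors, which fell from a mean of 1660 ± 163 to 1010 ± 11.6 normalized counts (SD, n = 2 each). Its log2 difference was -0.72 (standard error 0.1, FDR = 0.00238, quasi-likelihood test of edgeR, Benjamini-Hochberg adjusted). In heterozygotes its log2 difference was -0.41 (standard error 0.1, FDR = 0.0746, same edgeR test), and 2 of 13 alternatives put it past the threshold, DESeq2 (FDR = 0.0396) and the edgeR test without the filter (FDR = 0.026).

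For Stard3, 1 of 14 StAR-related and endosomal sterol transfer genes was past the threshold in homozygotes. It was the phospholipid carrier Stard10, with 108 ± 3.08 normalized counts in wild type and 209 ± 15.5 in homozygotes (SD, n = 2 each). Its log2 difference was 0.96 (standard error 0.17, FDR = 0.00696, same edgeR test), and its FDR was 0.0547 in the same edgeR test without homozygous replicate 1. Of 28 genes of GPI anchor assembly and remodelling, the pathway of Pgap3, only Gpaa1, a subunit of the transamidase that attaches the anchor, was past the threshold. It had 634 ± 6.95 normalized counts in wild type and 397 ± 13.9 in homozygotes (SD, n = 2 each), a log2 difference of -0.67 (standard error 0.12, FDR = 0.00898, same edgeR test). Its FDR by that edgeR test was 0.0674 without wild-type replicate 2 and 0.0732 without homozygous replicate 2. Neither list had a gene past the threshold in heterozygotes with edgeR, with unadjusted p-values under 0.05 for 1 of the 14 and 3 of the 28, and with DESeq2 0 of either were called.

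For Ormdl3, 0 of 16 genes of sphingolipid synthesis were past the threshold in either comparison with edgeR, with 3 and 1 at an unadjusted p under 0.05 in homozygotes and heterozygotes, and DESeq2 called 0 in both. In homozygotes the smallest p was that of Cers6, a ceramide synthase, with a log2 difference of -0.32 (standard error 0.11, FDR = 0.132, quasi-likelihood test of edgeR, Benjamini-Hochberg adjusted), against -0.37 (standard error 0.11, FDR = 0.116, same edgeR test) in heterozygotes. For Mien1, 3 selenoprotein-like relatives were tested and 0 were past the threshold with edgeR, with 0 and 1 at an unadjusted p under 0.05, and DESeq2 called 0 in both. Selenoh had the smallest p in homozygotes, with a log2 difference of 0.27 (standard error 0.18, FDR = 0.475, same edgeR test), against 0.48 (standard error 0.18, FDR = 0.209, same edgeR test) in heterozygotes.

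For Gsdma, 9 gasdermins and inflammasome genes were tested, and 2 of them, Casp1 and Casp4, rose in both mutant genotypes, beside 5.21% of all tested genes past the threshold in homozygotes and 1.75% in heterozygotes. Both encode caspases that cleave gasdermin D. Casp1 had 32.5 ± 3.18 normalized counts in wild type, 120 ± 20.5 in heterozygotes and 148 ± 13 in homozygotes (SD, n = 2 each). Its log2 difference was 2.19 (standard error 0.25, FDR = 0.000427) in homozygotes and 1.89 (standard error 0.25, FDR = 0.00428) in heterozygotes, by the Benjamini-Hochberg adjusted quasi-likelihood test of edgeR. Casp4 had 9.54 ± 0.758, 47.4 ± 12.1 and 69.5 ± 30.5 normalized counts (SD, n = 2 each), with log2 differences of 2.83 (standard error 0.47, FDR = 0.00522) in homozygotes and 2.29 (standard error 0.48, FDR = 0.0375) in heterozygotes by the same edgeR test. In heterozygotes, 9 of 12 alternatives put Casp4 past the threshold. Its FDR by the edgeR test was 0.152 without wild-type replicate 1, 0.189 without wild-type replicate 2 and 0.125 without heterozygous replicate 2. The other 7 tested genes of the list did not pass the test in either comparison, among them Casp8 (named after its values were seen), with log2 differences of -0.05 and 0.07 (standard error 0.09 each).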

How the data were processed

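The data were RNA-seq read counts of 6 T cell libraries. Libraries of B cells were not used here. Per the submitters' processing notes and the study's methods, reads were trimmed with Trimmomatic 0.38.1, mapped to mm10 with HISAT2 2.2.1 and counted on refGene genes with HTSeq 2.0.2. The authors deposited raw counts per gene, without normalization. Rows naming no gene held 42.3 to 49.3% of entries and were left out. The library kit does not mark strand, and the strand setting of the counting is not given in the sources used here.

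The tests were run with edgeR 4.0.16 under R 4.3.3. The function filterByExpr (minimum count 10, minimum total 15) left 12117 genes. Libraries were scaled by TMM and fitted by the quasi-likelihood method with 1 coefficient per genotype. The Benjamini-Hochberg adjustment (FDR) covered the 12117 genes, and 0.05 was the threshold. Log2 CPM used a prior count of 2. Standard errors were taken from the quasi-likelihood F statistic. The code was tested on simulated data. The p-values set a difference between genotypes against the spread between libraries of the same genotype. That spread was estimated over all 6 libraries together and drawn towards that of other genes (prior degrees of freedom 8.2). The replicates of each genotype differed by more than sampling noise (chi-square per degree of freedom 10.1 to 13.4).

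RefSeq coordinates on GRCm38.p6 matched 25136 of 25239 symbols. The genes of the block and the pathway lists were chosen with earlier results of these data known. Genes named were the 10 genes and Ikzf3, listed or flanking genes past the threshold (or the listed gene with the smallest p), the nearest tested flanking genes, marker genes beside a result, and the 5 genes most correlated with Grb7. Alternatives were DESeq2 1.42.0, its size factors, library totals alone, no filter, at least 10 reads in every library, a replicate block, only the genotypes compared, and each library left out. Upstream sequences are from RefSeq, which has a window for 6 of the 10 genes in the table used.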

Additional observations from a re-analysis of the deposited data

How the results depend on the processing

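The log2 difference of Grb7 kept its direction in all 13 alternatives of both comparisons. It was 2.8 to 3.03 in homozygotes and 1.45 to 1.75 in heterozygotes. The number of genes past the threshold depended on the filter and on single libraries. In homozygotes it was 631, against 1047 without the filter on low counts and 257 to 734 with 1 library left out. In heterozygotes it was 212, against 328 with DESeq2, 710 without the filter and 83 to 251 with 1 library left out. Flanking genes past the threshold in homozygotes numbered 1, against 2 with DESeq2 (Arl5c and Pcgf2), 2 without the filter (Epop and Pcgf2) and 0 to 2 with 1 library left out. In heterozygotes they numbered 0, against 1 without the filter (Pcgf2). The cause was not tested. Where a genotype was left with 1 library, that library was assumed to vary like the others. A replicate block, with the replicate number as a term, gave 495 and 149 genes past the threshold and log2 differences of Grb7 of 2.92 and 1.61. Whether the numbers pair the libraries is not given, and no pairing was assumed. Deviations of libraries with the same number from their group means correlated between -0.22 and 0.24. These values cannot decide on pairing, since with 2 libraries in a group the deviations mirror each other. Ormdl3 and Tcap in homozygotes and Stard3 in heterozygotes changed sign in some alternatives (-0.01 to 0.15, -0.08 to 0.17 and -0.11 to 0.12). Depth limits Erbb2, Gsdma and Pnmt, which could not be tested.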
